A study of Caenorhabditis elegans with 5 samples.

Results

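The genes described here are 10 collagens of the *Caenorhabditis elegans* cuticle that are named for the body shape of their mutants: *sqt-1*, *sqt-2*, *sqt-3*, *rol-6*, *dpy-4*, *dpy-5*, *dpy-13*, *dpy-17*, *bli-1* and *bli-2*. They were chosen by name from the squat, roller, blister and dumpy collagens that do not belong to the annular furrows. They are not all of that class. Every probe set that carries one of these symbols alone was used. That gave 12 probe sets of 22548 on the array and 10 of 17118 named genes, with 2 probe sets each for *sqt-3* and *bli-1*.

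The cuticle is the exoskeleton of the worm, secreted by the epidermis and made anew before every moult. Its main proteins are small collagens whose chains assemble into trimers in the secretory pathway, are trimmed by proteases and are then crosslinked outside the cell. Loss or alteration of a single such collagen can shorten the animal (dumpy), twist it so that it rolls (roller), do both (squat) or let the cuticle layers come apart in fluid-filled swellings (blister).

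Gene expression was measured in whole wild-type worms of the Bristol N2 strain, mixed in stage, on 5 Affymetrix arrays with RNA of 100000 pooled worms each. Cultures grew in CeMM, a liquid medium of known composition, at 20 °C for 10 days. A pair of ground controls was kept at 1 G, at Tsukuba space center and at the mission's operation site, and the other arrays hold worms from space flight (microgravity), from clinorotation (a gravity vector of changing direction) and from hypergravity, for which one label gives 3 G and another 10 G. No treatment was repeated on another array, and the only spread available is the SD of the 2 controls on the log2 scale (n = 2), which come from different sites. All 3 treatments are compared with the same controls, and in pooled whole worms fewer cells of a type and less RNA per cell cannot be told apart.

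Values are probe set signals without a physical unit. The arrays were quantile scaled, since as deposited they differed in brightness, with medians from 38.8 to 57.1. A floor of 25.1, at the 40th percentile of the scaled values, was put under all signals and stands in for a background limit. The 10075 genes with a mean log2 signal above the floor were tested, and 8 of the 10 members were among them, *bli-1* and *bli-2* being too low. All 14 epidermal markers that are not collagens, such as the transcription factor genes *elt-3* and *lin-26*, had a mean above the floor, although *hch-1* was at the floor at the operation site and in space flight and *che-14* in space flight. The controls differed from each other in many genes, sperm genes most visibly: the summed signal of 12 sperm markers was 22610 at the operation site and 22401 in space flight against 5692 at Tsukuba, 4683 in clinorotation and 6865 in hypergravity, with *spe-9* at the floor on every array.

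Across the 5 arrays the members did not vary alike. *rol-6*, *sqt-1*, *sqt-2* and *dpy-5* had their lowest signal in hypergravity, where each lay more than 2-fold below both controls. *dpy-17* had its highest signal there, after a 13.003-fold difference between the controls themselves. *dpy-13*, *dpy-4* and the brighter probe set of *sqt-3* moved by less than 1.5-fold over all arrays, and *bli-1* and *bli-2* were at or near the floor. In none of the treatments did limma call a member at a threshold of 0.05 on the adjusted p, and it called 0 of the 10075 genes tested, with 144, 32 and 244 at an unadjusted p under 0.05 in space flight, clinorotation and hypergravity.

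**Figure D1:**
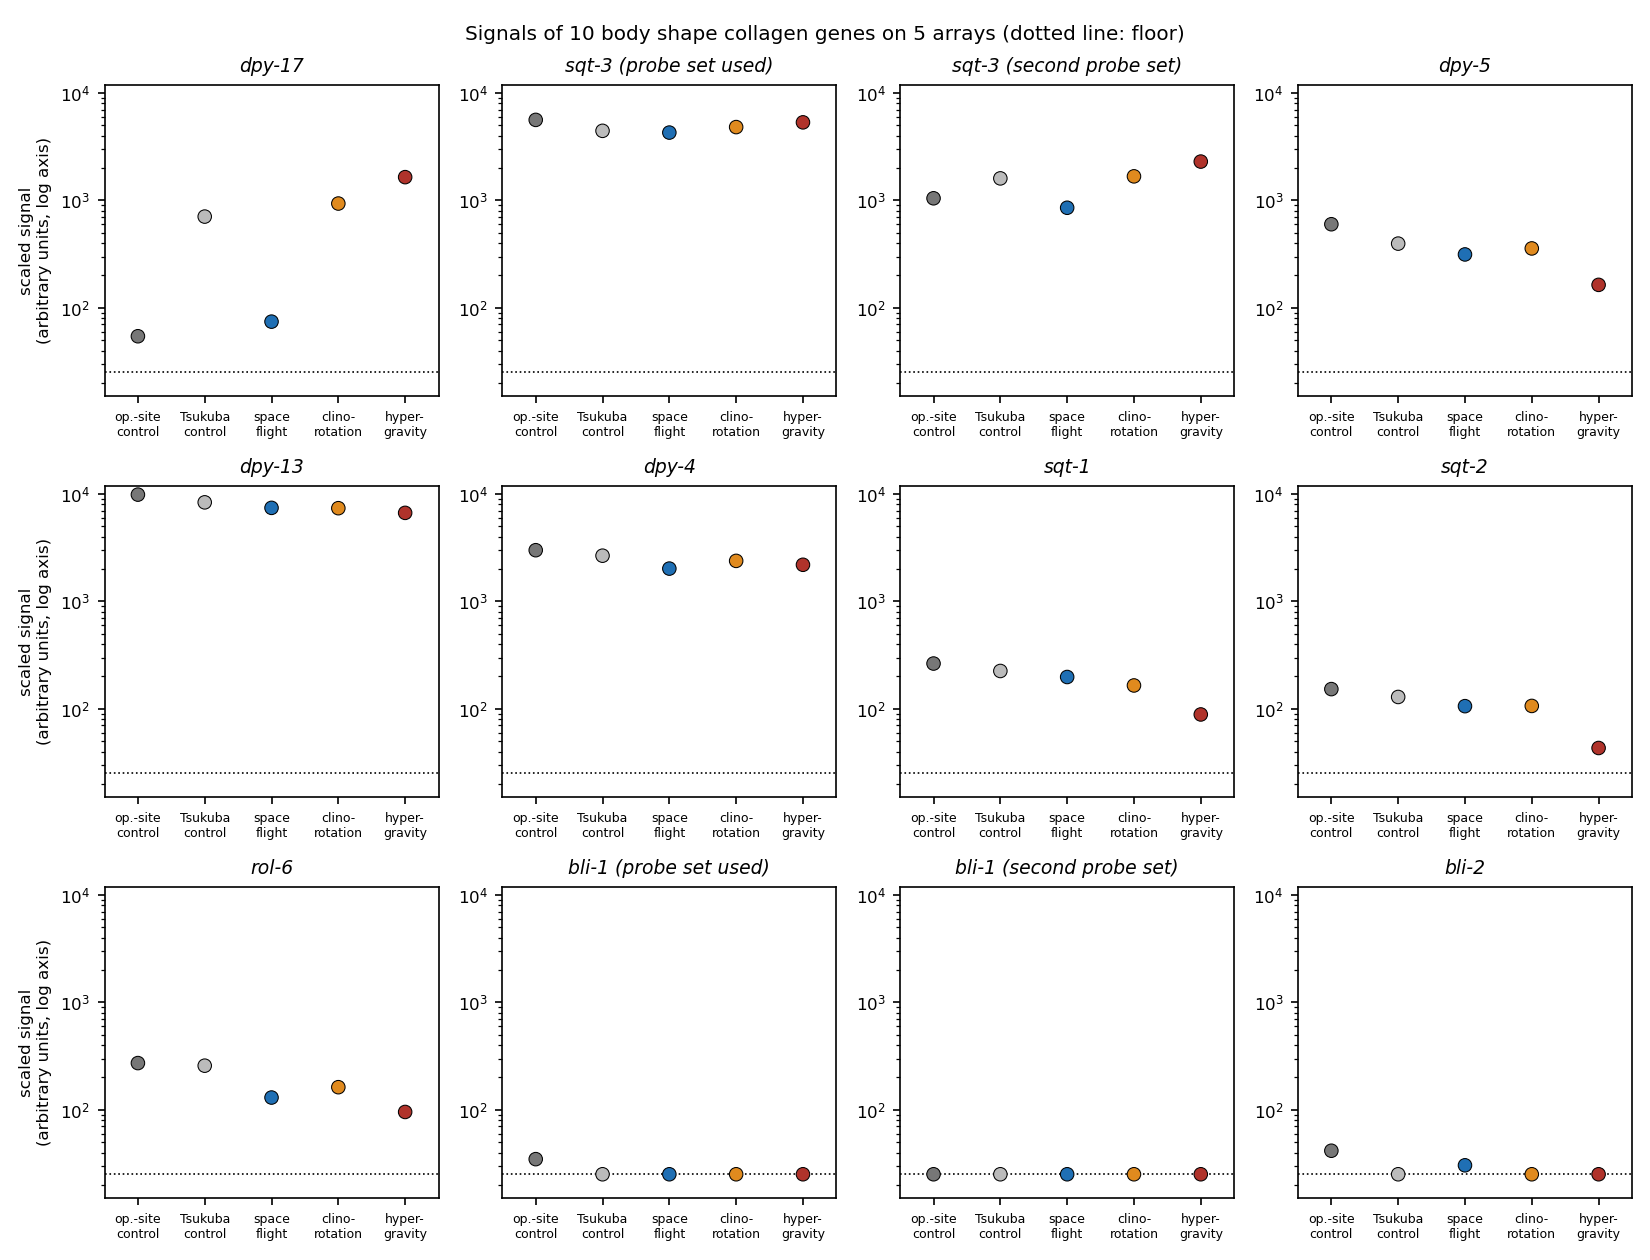
Scaled signal (log axis, arbitrary units) of each of the 12 probe sets of the 10 genes on the 5 arrays, 1 point per array, with the floor of 25.1 as a dotted line. The points of *dpy-17* run from 54.4 in the operation-site control to 1647 in hypergravity, while *rol-6*, *sqt-1*, *sqt-2* and *dpy-5* are lowest in hypergravity.

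*rol-6* and *sqt-1* encode closely related collagens that act together genetically: mutant *rol-6* needs *sqt-1* to make worms roll, and dominant *rol-6* is widely used as a visible marker of transgenic worms. *rol-6* read 272 at the operation site, 258 at Tsukuba, 130 in space flight, 162 in clinorotation and 95.5 in hypergravity. All 3 treatments lay below both controls, whose SD was 0.06 (log2), and each step in that order, from the Tsukuba control to clinorotation (0.67), to space flight (0.32) and to hypergravity (0.45), was larger than this SD. This SD rests on 2 arrays and is smaller than the SE that limma gave, 0.29. Without scaling, space flight and clinorotation were at -0.40 and -0.37 (log2) from the control mean, so the step between them depends on the scaling. Hypergravity lay 2.70-fold, space flight 1.98-fold and clinorotation 1.59-fold below the nearer control. In hypergravity limma gave -1.47 ± 0.29 (log2, SE) against the mean of the controls, at an adjusted p of 0.949.

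*sqt-1* read 264 in the control of the operation site and 225 in that of Tsukuba, 198 in space flight, 165 in clinorotation and 88.6 in hypergravity. The control SD was 0.16 (log2). The steps from the Tsukuba control to space flight (0.19) and on to clinorotation (0.26) were not far above it, while clinorotation and hypergravity were 0.90 apart. In hypergravity *sqt-1* lay 2.54-fold below the nearer control, and limma gave -1.46 ± 0.31 (log2, SE; adjusted p of 0.949).

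*sqt-2*, a further collagen whose mutants are squat, read 153 and 129 in the controls, 106 in space flight, 106 in clinorotation and 43.2 in hypergravity. Space flight and clinorotation differed by less than the control SD of 0.17 (log2) and lay 1.22-fold and 1.21-fold below the nearer control. Hypergravity was 2.99-fold below it, the farthest of the members, at -1.70 ± 0.35 from the control mean (log2, SE, limma; adjusted p of 0.949). Of the 10075 genes tested, 10 had a lower difference in hypergravity than *sqt-2*, 18 a lower one than *dpy-5*, 27 a lower one than *rol-6* and 29 a lower one than *sqt-1*.

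*dpy-5*, needed for a body of normal length, read 600.1 at the operation site, 396 at Tsukuba, 314 in space flight, 357 in clinorotation and 164 in hypergravity. Its controls were farther apart than those of the preceding genes, with an SD of 0.42 (log2), and the steps from Tsukuba to clinorotation (0.15) and on to space flight (0.19) were smaller than that. Hypergravity stood 0.94 below space flight, the next lowest array, and 2.42-fold below the nearer control. Limma put it at -1.58 ± 0.37 (log2, SE; adjusted p of 0.949). The names of the probe sets of *dpy-5* and *sqt-1* mark probes common to several transcripts, while those of *rol-6*, *sqt-2* and *dpy-17* carry no such mark.

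In hypergravity 4 of the 10 members were thus at least 2-fold below both controls, where 0.675% of the genes tested were (68 of 10075). Counting any distance, 6 of 10 lay below both controls and 1 above both, against 32.7% and 33.2% of the genes tested. Hypergravity was the lowest of the 5 arrays for 5 of the 10 members, *dpy-13* being the other one, against 21.5% of genes tested. *bli-1* and *bli-2* are not among the genes tested and, being at the floor at Tsukuba, could not fall below that control. Of the 8 members above the floor, 6 were below both controls and 5 were lowest in hypergravity. Without scaling of the arrays all of these 5 still lay below both controls, but *sqt-2* alone was more than 2-fold below (2.24-fold), with *rol-6* at 1.93-fold, *sqt-1* at 1.81-fold and *dpy-5* at 1.71-fold.

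Other collagen families are set beside these values with no test of the difference. Of 3 further collagens of body shape or surface above the floor, 1 was below both controls in hypergravity and 1 above both. None was at 2-fold, and their median difference was -0.15 (log2), or 0.09 without scaling. Of 5 measured furrow collagens, which form the ring-shaped grooves of the cuticle, 2 were below both controls there and 1 above both, none at 2-fold, with a median difference of 0.14 (log2), and without scaling 2 were below and 3 above, with a median of 0.49. Of 94 *col* genes above the floor, the large family of cuticle collagens named by number, 34 were below and 14 above, with a median of -0.10. At least 2-fold outside both controls were 1 below and 1 above. Without scaling, 12 *col* genes were below and 47 above, with a median of 0.26, so the direction of that family depends on the scaling. The members above the floor had a median of -0.95, which was -0.57 without scaling. The median of all genes tested was 0.0012, and 0.39 without scaling.

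**Figure D2:**
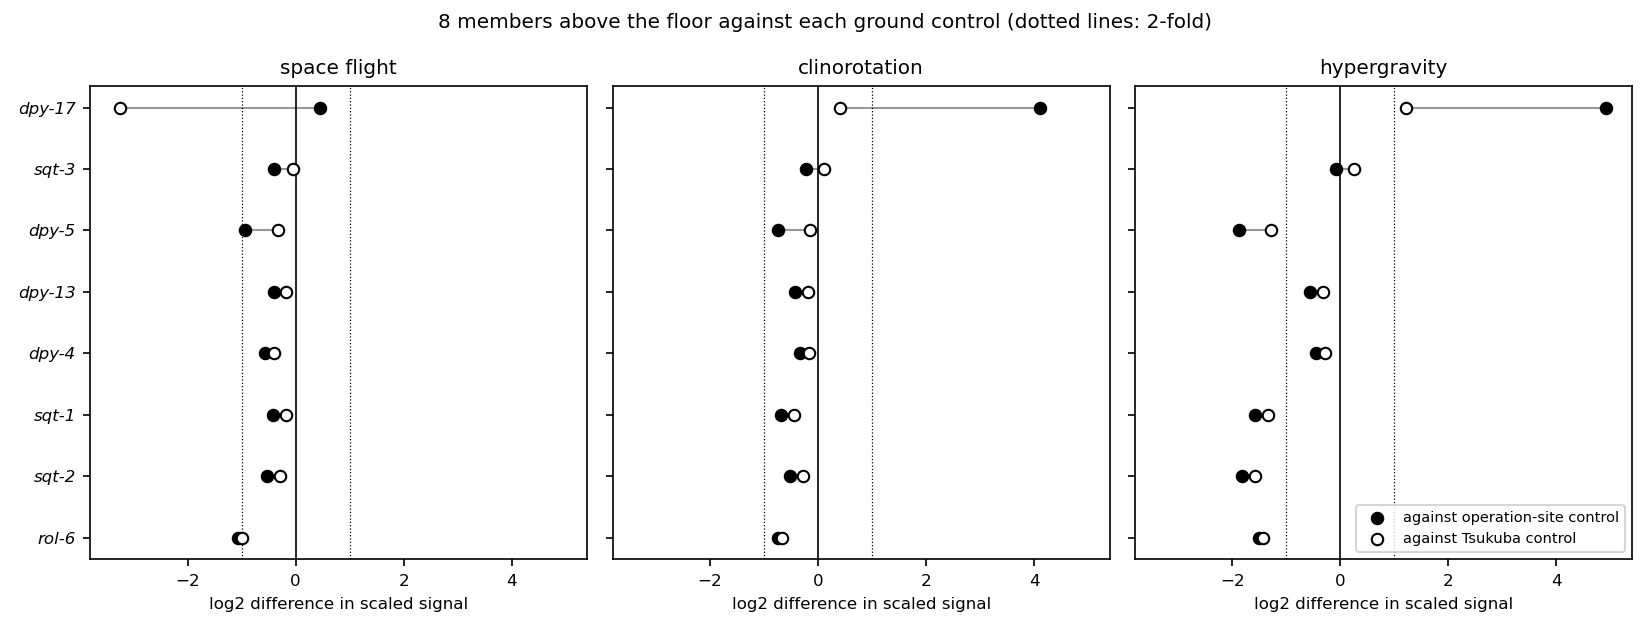
Difference in log2 scaled signal of each treatment from the operation-site control (filled) and from the Tsukuba control (open) for the 8 members above the floor, with 2-fold marked by dotted lines. In hypergravity both points of *rol-6*, *sqt-1*, *sqt-2* and *dpy-5* lie beyond 2-fold lower, and both points of *dpy-17* beyond 2-fold higher.

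*dpy-17* encodes a collagen that aids the secretion of another one, SQT-3, from the epidermis. It read 54.4 in the operation-site control and 74.4 after space flight, but 707 at Tsukuba, 935 in clinorotation and 1647 in hypergravity. The first pair of arrays was low and the remaining 3 were high. The range was 30.3-fold, and 2 genes of the 10075 tested had a larger one. The controls alone differed by 13.003-fold (SD 2.62, log2), and space flight lay between them, 1.37-fold above the operation site and 9.51-fold below Tsukuba. At least a 2-fold lower signal at the operation site was found in 4.11% of genes tested and in 1 of the 10 members, and a 2-fold higher one in 4.43% of genes tested and 0 members. Of the 8 members above the floor, 7 were higher at the operation site than at Tsukuba by any distance, against 52.6% of genes tested. This counts *sqt-3* by its brighter probe set, and its second one was lower at the operation site, at 1047 against 1604. *bli-1* and *bli-2* were at the floor at Tsukuba.

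Clinorotation lay 1.32-fold and hypergravity 2.33-fold above the Tsukuba control, the higher of the controls. Against the operation-site control alone the same values are 17.2-fold and 30.3-fold, so the size of any difference in *dpy-17* rests on which control is used. By the probe set used for each gene, *dpy-17* was the 1 member of 10 that was highest in hypergravity, as were 21.1% of genes tested. It was also the 1 member with the operation site and space flight below the other 3 arrays, as were 20.5%. The second probe set of *sqt-3* had both patterns too. It read 1047 at the operation site and 854 in space flight against 1604 at Tsukuba, 1675 in clinorotation and 2299 in hypergravity. *dpy-17* was the 1 member at least 2-fold above both controls in hypergravity, as were 0.248% of the genes tested. Limma gave 3.07 ± 1.75 (log2, SE) for hypergravity, and the spread between the controls enters that SE.

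The genes that followed *dpy-17* most closely over the 5 arrays, looked up after its values had been seen, included others of the epidermis and cuticle. The genes were ranked by Pearson's r over 5 arrays among 759 genes that varied at least as much as the median member, and 91 of these had an r over 0.95. *dpy-14* (r = 0.9985), an essential collagen gene of early development, was at the floor at the operation site, at 39.0 in space flight, at 472 at Tsukuba, at 584 in clinorotation and at 929 in hypergravity. It is one of the 2 genes with a wider range than *dpy-17*, and the other, *R11A5.3*, was at the floor in both arrays where *dpy-17* was low, with 1381 at Tsukuba, 583 in clinorotation and 425 in hypergravity. *cut-3*, a cuticlin gene (r = 0.9969), and *hch-1*, the gene of a protease used in hatching (r = 0.9968), were both at the floor at the operation site and in space flight. At Tsukuba, in clinorotation and in hypergravity *cut-3* read 179, 243 and 417, and *hch-1* 104, 113 and 173. The others of the 6 closest, *ZK105.1*, *clec-190* and *T09B4.5*, had an r from 0.9955 to 0.9986.

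**Figure D3:**
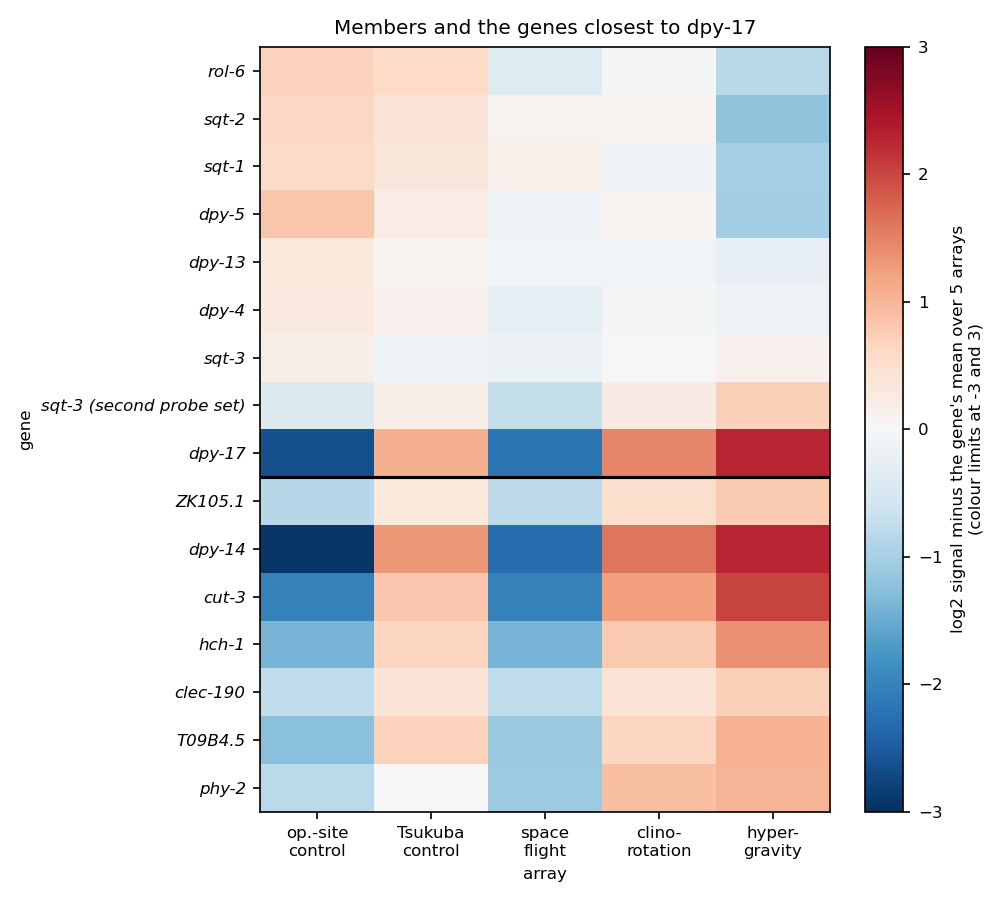
Log2 signal of each gene minus its own mean over the 5 arrays, as colour (red higher, blue lower, limits at -3 and 3), for the 8 members above the floor, *sqt-3* by both probe sets (above the line), and, under the line, the 6 genes closest to *dpy-17* and *phy-2*. *dpy-17* and the genes under the line are blue for space flight and the operation site and red in clinorotation and hypergravity.

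*sqt-3* encodes an abundant collagen that is essential in the embryo as well as later. Its 2 probe sets disagreed. The brighter one, whose name marks probes shared with other transcripts, read 5620 and 4444 in the controls, 4281 in space flight, 4816 in clinorotation and 5330 in hypergravity, and once the arrays are sorted by signal no step between neighbours exceeded the control SD of 0.24 (log2), although the controls are the second lowest and the highest of them. The other, whose name marks probes of a single transcript, read 1047 at the operation site, 1604 at Tsukuba, 854 in space flight, 1675 in clinorotation and 2299 in hypergravity. On this probe set hypergravity lay 1.43-fold above the nearer control and space flight 1.23-fold below it, with a control SD of 0.44 (log2), and the order of the arrays was that of *dpy-17* except that space flight was below the operation site. Without scaling, space flight lay between the controls on this probe set.

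*dpy-31* encodes the astacin protease that cuts the carboxyl end of SQT-3. It was chosen after its values were seen and did not share the order of *dpy-17*: it read 380.3 and 380.9 in the controls, 214 in space flight, 319 in clinorotation and 232 in hypergravity. *phy-2*, a catalytic subunit of the prolyl hydroxylase that modifies collagen chains, read 118 and 204 in the controls, 98.2 in space flight, 385 in clinorotation and 421 in hypergravity, 2.06-fold above the nearer control. Of 12 genes of collagen processing and crosslinking above the floor, 4 were below both controls in hypergravity and 5 above both, with a median of 0.07 (log2), and 0 of 12 passed limma, as 0 of 10075 genes did. Without scaling 1 was below and 9 were above.

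*dpy-13* and *dpy-4*, both needed for normal body length, gave some of the brightest signals on the arrays. *dpy-13* read 9868 and 8362 in the controls, 7430 in space flight, 7378 in clinorotation and 6674 in hypergravity, and its percentile among all probe sets ran from 99.36 to 99.84. *dpy-4* read 2998 and 2665 in the controls, 2021 in space flight, 2384 in clinorotation and 2193 in hypergravity. Both genes lay below both controls in all 3 treatments after scaling. Their distances to the nearer control ran from 0.16 to 0.40 (log2), against control SDs of 0.17 for *dpy-13* and 0.12 for *dpy-4*. As deposited, *dpy-13* was 1.01-fold above the higher control in space flight, between the controls in clinorotation and 1.01-fold below the lower control in hypergravity, and *dpy-4* was between the controls in space flight and hypergravity and above both in clinorotation. Each was read by a single probe set whose name marks probes shared with other transcripts.

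*bli-1* and *bli-2* encode collagens of the struts that join the layers of the adult cuticle. On the brighter probe set of *bli-1* the operation-site control read 34.7 and the other 4 arrays were at the floor, and on its other probe set all 5 arrays were. *bli-2* read 41.6 at the operation site and 30.4 after space flight and was at the floor on the remaining 3 arrays, the arrays on which sperm genes were also low. It was the 1 member with the operation site and space flight above the other 3 arrays, as were 24.2% of genes tested. Against the floor its signal was at least 1.66-fold higher at the operation site. Other adult genes did not follow that split throughout: the adult collagen gene *col-19* read 338 and 124 in the controls, 283 in space flight, 136 in clinorotation and 256 in hypergravity, and the yolk gene *vit-5* 1522 and 1560, 1338, 1411 and 2728. The part of stage and of adult tissue in these differences was not tested.

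Space flight set 7 of the 10 members below both controls and 0 above, against 29.5% and 36.3% of the genes tested. The 7 were *rol-6*, *dpy-5*, *dpy-4*, *sqt-2*, *sqt-1*, *dpy-13* and *sqt-3*, all among the 8 members above the floor. The 8 members above the floor had a median difference of -0.45 (log2), against 0.03 for all genes tested. Apart from *rol-6*, the distances of the 7 to the nearer control ran from 0.05 to 0.40. No member was 2-fold below or above both controls, as 0.546% and 0.149% of genes tested were. Without scaling, when the median of all genes was 0.62 higher than in the controls, *rol-6* was the 1 member below both (1.21-fold), 3 were above both, and the median of the members was 0.07. Of the furrow collagens 5 of 5 lay below both controls in space flight, with and without scaling, with medians of -1.30 and -0.74, and *dpy-9* was the farthest, at 32.8 against 88.3 and 74.2.

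Clinorotation set 6 of the 10 below both controls, the same genes as in space flight except *sqt-3*, and *dpy-17* above both, against 27.7% and 28.4% of the genes tested. None was 2-fold outside both, as 0.0397% of genes tested were below and 0.0893% above. *rol-6* was again the farthest below, at 1.59-fold, followed by *sqt-1* at 1.36-fold. The 6 were all among the 8 members above the floor, whose median was -0.35 (log2), against 0.0057 for all genes tested. Without scaling 2 of the 10, *rol-6* and *sqt-1*, were below both controls, at 1.19-fold and 1.02-fold, and 3 above both. Of 94 *col* genes 41 lay below both controls in clinorotation and 15 above both, with a median of -0.22, and without scaling 15 and 41. The 6 members that lay below both controls in clinorotation also did so in hypergravity, but the treatments share their controls, so this is no separate support for either.

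**Figure D4:**
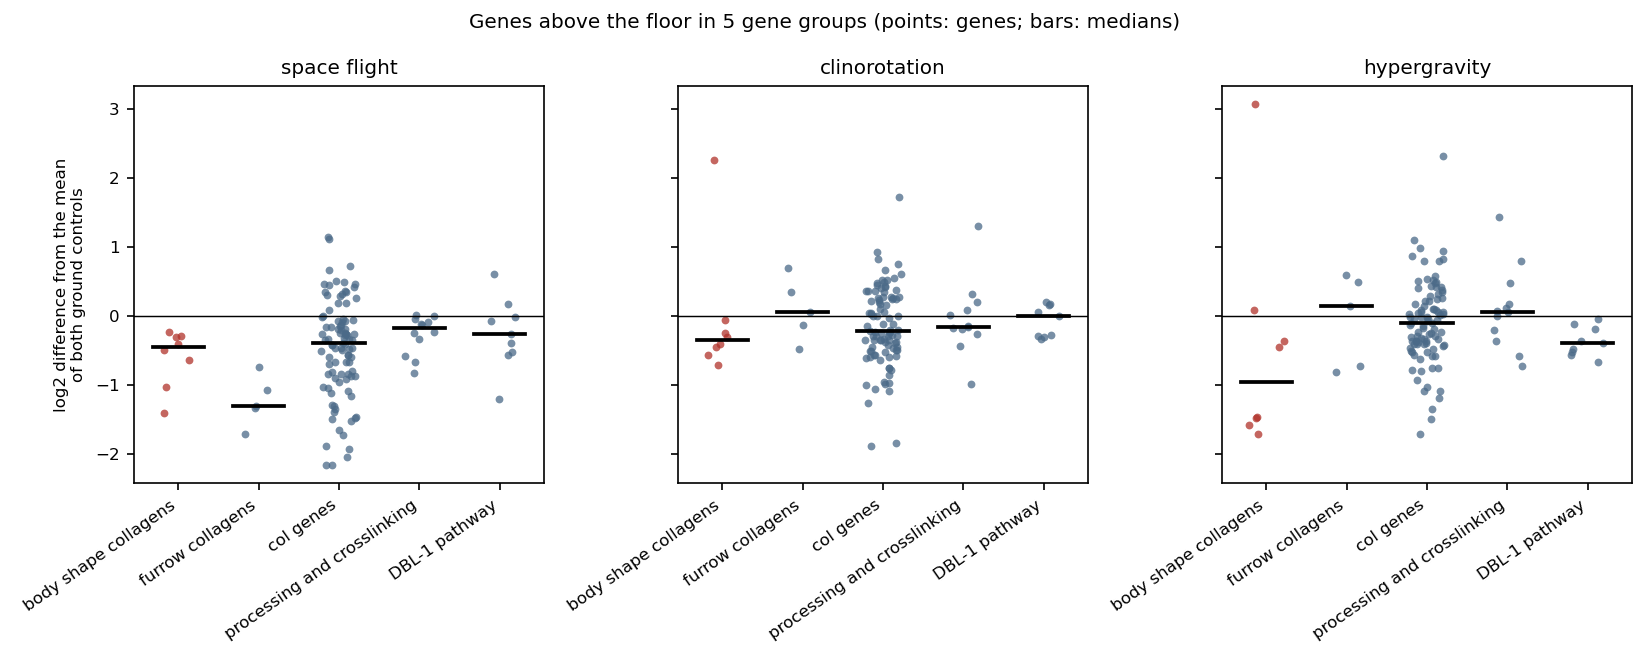
Difference of log2 scaled signal from the mean of both ground controls for each gene above the floor (points) and the median (bars) in 5 groups of genes, for space flight, clinorotation and hypergravity. The medians of the body shape collagens are -0.45, -0.35 and -0.95, and in hypergravity 4 of their points lie under -1.4 with *dpy-17* above 3.

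DBL-1 is the secreted TGF-beta-like signal that sets body size in the worm, and cuticle collagens, *rol-6* among them, are known targets of its pathway. In hypergravity 9 of 9 measured pathway genes above the floor lay below both controls, where 32.7% of the genes tested did. None of the 9 was 2-fold below, and their median was -0.39 (log2). Their distances to the nearer control in hypergravity ran from 1.01-fold to 1.32-fold. The receptor gene *daf-4* read 151 there against 297 and 191 in the controls, and the receptor gene *sma-6* 141 against 219 and 174, both named after their values were seen. Under trimmed-mean scaling 8 of the 9 lay below both controls, but without scaling 0 did and the median was 0.01, so this direction holds relative to all genes only. *lon-1*, a negative regulator of body length, was the 1 pathway gene 2-fold outside both controls, in space flight, at 187 against 408 and 453. *lon-1* is among the 9, so their common side gives no direction for the signal. The part of the pathway in the *rol-6* values was not tested.

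Of 11 regulators of epidermis and cuticle above the floor, 4 lay below both controls and 4 above both in hypergravity, and 0 were 2-fold outside both in any treatment. Without scaling 1 was below and 7 were above. Of 14 moulting genes 5 were below and 6 above in hypergravity (2 and 9 without scaling), with *mlt-10* at 61.9 against controls at the floor and at 25.2, and *mlt-8* was 2.24-fold below the nearer control in space flight, at 61.0 against 141 and 137. The 14 epidermal markers that are not collagens had a summed signal of 4609 at the operation site, 6660 at Tsukuba, 3561 in space flight, 6090 in clinorotation and 5493 in hypergravity, with none at the floor on every array. In hypergravity 3 of these 14 lay below both controls and 6 above both, and without scaling 1 below and 10 above. In space flight 11 of the 14 lay below both controls, where 29.5% of the genes tested did, beside the 7 members. Without scaling 2 of the 14 were below both controls in space flight and 6 above both, so that count depends on the scaling, and the part of epidermal content in the space flight values was not tested.

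Most markers of adults and of the oocyte and germ line list were above both controls in hypergravity (without scaling, 4 of 5 and 12 of 12). All 12 of the oocyte and germ line list were so in space flight too, with and without scaling. After scaling, 33.2% of the genes tested lay above both controls in hypergravity and 36.3% in space flight. Unscaled arrays are brighter by 0.39 and 0.62 (log2) in these treatments, in the median of all genes. The counts above both controls without scaling are thus no separate support. Of 9 sperm markers above the floor, 0 lay above both controls and 2 below both in hypergravity (0 and 0 without scaling). The summed signal of 5 adult markers was 17200 in hypergravity against 11773 and 10111 in the controls, with 4 of 5 above both. These 4 were yolk genes, and the other was the collagen gene *col-19*, at 256 against 338 and 124. The sum of 12 oocyte and germ line markers was 14446 in hypergravity against 11229 and 10050, with 10 of 12 above both. In space flight the same sums were 11607 and 13652, and in clinorotation 10115 and 11302. Body wall muscle markers summed to 16011 in hypergravity against 18005 and 18472, and intestinal markers to 12686 against 13176 and 12928. The part of these tissues and stages in the collagen values was not tested.

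The mean profile of the 8 members above the floor, each centred on its own mean, was 0.11 (log2) in the operation-site control and 0.34 in that of Tsukuba, -0.37 in space flight, 0.17 in clinorotation and -0.25 in hypergravity. The 8 genes closest to it over the 5 arrays, of 756 that varied at least as much as the median member, were *F59E11.5*, *catp-1*, *T22B7.3*, *W01C9.2*, *Y42A5A.3*, *dach-1*, *scl-11* and *hmit-1.2*, with Pearson's r from 0.9486 to 0.9836. This mean does not describe each member, whose r with it ran from 0.06 for *sqt-3* to 0.81 for *rol-6*. The members were not scaled to equal spread, and *dpy-17* had an SD of 2.25 (log2) over the arrays, against 0.17 to 0.71 in the others. The mean was higher at Tsukuba, though 7 of the 8 members were higher at the operation site. Among the members themselves *sqt-1* and *sqt-2* were the most alike, at r = 0.985 over the 5 arrays, and *dpy-17* was negatively correlated with *rol-6* (-0.397), *sqt-1* (-0.717), *sqt-2* (-0.636) and *dpy-5* (-0.651). These values describe 5 arrays that share their scaling. The closest genes to the mean of *sqt-1*, *sqt-2*, *rol-6* and *dpy-5*, chosen after their values were seen, were less close than those of *dpy-17*, with a highest r of 0.9344 for *W03G1.5* and 0 of 757 genes over 0.95.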

How the data were processed

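Biotin-labelled cRNA from 15 µg of total RNA per group was hybridised to 5 Affymetrix arrays, per the labels. The authors deposited linear intensities, a single one for each probe set, with no detection call. The software that summarised the probe cells is not given in the sources. Gene symbols came from the platform annotation at GEO: 20766 carried 1 symbol, 887 several and 895 were not listed. All 10 members matched the RefSeq gene table (WBcel235) by identifier.

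Arrays were quantile scaled, values under the 40th percentile were set to it, and log2 was taken. A gene was read by its probe set with the highest mean. Genes with a mean log2 signal before flooring above the floor entered limma 3.58.1 (R 4.3.3; lmFit, eBayes with an intensity trend) on the 5 arrays, both controls forming a group, with two-sided p-values, Benjamini-Hochberg adjusted over 10075 genes. Its 1 residual degree of freedom comes from the controls, a lone array is taken to vary like them, and no p-value reflects more than the spread of these samples. Genes were also counted below or above both controls, with no test. The computation was checked on simulated data in which all genes had the same SD. The real genes differ in spread, so that check does not show which changes limma could detect here.

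Alternatives were no scaling, trimmed-mean scaling, another floor or none (log2 of signal + 16), no filter, the mean of all probe sets, no intensity trend, and each control alone. The members, the gene lists and the tests were chosen with earlier results of these data known. Named genes are the members, up to 4 genes per list at least 2-fold outside both controls (of the *col* family, *col-45*, *col-102* and *col-85*, lower in space flight, and *col-165*, higher in hypergravity) and the 8 closest to the mean profile. Other genes named, such as *dpy-14*, *cut-3*, *hch-1*, *R11A5.3*, *dpy-31*, *daf-4*, *sma-6*, *col-19* and *vit-5*, fall outside that rule and were chosen after their values were seen, and *elt-3*, *lin-26*, *che-14* and *spe-9* are named as markers. Precision is limited by the number of arrays, 5.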

Additional observations from a re-analysis of the deposited data

Results flagged for a closer look

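The gene-specific probe set of *sqt-3* lay on opposite sides of both controls in different treatments. Its difference from the control mean was -0.60 (log2) in space flight, 0.37 in clinorotation and 0.83 in hypergravity. Its distance to the nearer control was 0.06 in clinorotation (1.04-fold) and 0.29 in space flight, both smaller than the control SD of 0.44, and 0.52 in hypergravity. The difference between the treatments was not tested, since each has 1 array, and without scaling the value for space flight was -0.02, between the controls.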

How the results depend on the processing

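Scaling, floor and probe set choice gave 150 values of single members, of which 48 were unaltered, 72 moved within the control SD and 30 moved beyond it or reversed. The sign changed in 13, of which 8 had lain outside both controls and 5 between them. The 8, all without scaling, were *sqt-3* (0.27), *dpy-5* (0.054), *dpy-13* (0.094), *dpy-4* (0.054), *sqt-1* (0.37) and *sqt-2* (0.17) in space flight, *dpy-4* in clinorotation (0.066) and *dpy-4* in hypergravity (0.042), in log2 from the control mean. The 5 were *bli-2* in space flight (0.29 without scaling, 0.76 with the lower floor, 0.37 with no floor) and *sqt-3* in clinorotation (0.23 without scaling, 0.16 with the mean of probe sets). Leaving out the filter alters no single value, and leaving out a control moves each by less than the control SD by construction, so neither speaks to stability. With 1 control the sign changed for *bli-2* in space flight (0.28) and *sqt-3* in clinorotation (0.12) against Tsukuba, and for *dpy-17* in space flight (0.45) and *sqt-3* in hypergravity (-0.076) against the operation site. Without scaling the count of members below both controls went from 7 to 1 in space flight and from 6 to 2 in clinorotation, and the median of the members from -0.45 to 0.074 in space flight and from -0.95 to -0.57 in hypergravity. Unscaled arrays are brighter in the treatments, by 0.62, 0.29 and 0.39 (log2) in the median of all genes in space flight, clinorotation and hypergravity. Without the filter the median in hypergravity was -0.41, as *bli-1* and *bli-2* then enter. Limma, with 0 calls and 144, 32 and 244 genes at an unadjusted p under 0.05 in space flight, clinorotation and hypergravity, called 192, 151 and 267 without the filter, of which 180, 147 and 258 had both controls at the floor and so no measured spread, and 0 of these calls were members. *rol-6*, *sqt-1*, *sqt-2* and *dpy-5* were below both controls in hypergravity, or below the 1 control used, without scaling, with trimmed-mean scaling, with no floor and against either control, with differences from -1.51 to -1.07, -1.57 to -1.06, -1.82 to -1.35 and -1.87 to -1.14. *dpy-17* in hypergravity ran from 1.22 against the Tsukuba control alone to 4.92 against the operation site alone. With 1 control, the count of members below it was 8 or 9 in space flight, 6 or 9 in clinorotation and 6 or 9 in hypergravity, and the medians of the members ran from -0.47 to -0.31, -0.47 to -0.17 and -1.04 to -0.80. No paired analysis was possible because each treatment has 1 array and the groups share fewer than 2 replicate numbers.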
